A study of Mus musculus with 24 samples.

Results

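S- thymocytes of the NODk strain, the CD4+ cells taken as they met the self antigen HEL in the thymus, were compared with PreS thymocytes, the immature cells that had not yet begun selection. The comparison holds 9 of the 24 arrays of the series, chosen by their titles: 3 arrays of S- cells from double transgenic mice and 6 of PreS cells, of which 3 came from mice with the TCR alone (TCR mice) and 3 from mice with both transgenes (TCR insHEL mice). All 9 came from female NODk mice, NOD mice congenic for the H2k haplotype, of 6 to 8 weeks that carried the 3A9 T cell receptor (TCR), which sees a peptide of hen egg lysozyme (HEL). The insHEL transgene places HEL under the insulin promoter, so that the antigen is made in pancreatic islets and, dependent on Aire, in rare medullary epithelial cells of the thymus. PreS cells were sorted as CD4+CD8+ without CD69, and S- cells as CD4+CD8low with CD69, the first negative and the second positive for 1G12, an antibody to the 3A9 clonotype. Each array held 1 pool of sorted cells, stained with inhibitors of transcription present, and its RNA was amplified in 2 rounds. The p values therefore measure the spread between such pools. Beside these, 3 arrays of S+ cells, CD4+ cells at an early step of positive selection in NODk mice with the TCR alone, entered the fit, and the 3 S- and 6 PreS arrays of B10k mice, a B10 strain that also carries H2k, served to compare the strains.

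A thymocyte with both coreceptors rearranges its receptor genes and then waits for a signal from self peptide and MHC. A weak signal lets the cell live and mature, with loss of one coreceptor, arrest of recombination and migration to the medulla. A strong one induces immediate early transcription factors, NF-kB and receptors of the TNF family, and can end in apoptosis through Bim, in anergy or in a regulatory fate.

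The measured value is the MAS 5.0 signal, the brightness of a probeset on 1 array on a linear scale, and changes are differences of its log2 value, S- minus PreS, with a standard error. A signal under 32 is called near background here, and a change that starts or ends there is not exact in size. In sorted bulk cells, fewer cells of a type and less RNA per cell cannot be told apart. The coreceptors used for the sort were read as a check of the labels. Cd8a had signals of 524, 282 and 265 in the 3 S- arrays and lay between 2460 and 3386 in the 6 PreS arrays, with a change of -3.19. Cd4 was at 835 ± 117 (SD, n = 3) and 475 ± 128 (SD, n = 6), a difference of 0.76 that did not pass the test (limma adjusted p = 0.0629). Cd8b1, the beta chain of CD8, had 307, 70.7 and 96.5 in S- and overlapped the PreS range of 136.5 to 482, without a call (-1.3, adjusted p = 0.282). The 6 T cell markers measured summed to between 10781 and 13667 in S- and between 11640 and 15886 in PreS. None of them was called.

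Markers of other cell types did not rise in S- as lists, though some were well above background in PreS. Of 5 B cell markers measured none rose and 2 were lower in S-, Cd79b and Ighm. Their summed signal ran from 1817 to 2080 in S- and from 3532 to 8124 in PreS, most of it Ighm. None of the 4 other probesets of Ighm was called, with changes between -1.47 and 0.5. Both calls were lost without any 1 of the 3 S- arrays, and that of Cd79b without 4 of the PreS arrays too (leave-one-out adjusted p from 0.0241 to 0.22 for Cd79b and from 0.0118 to 0.0829 for Ighm). Cd79a, the defining chain of the B cell receptor, was at 35.7 ± 20.3 (SD, n = 3) and 33.5 ± 10.6 (SD, n = 6), close to background. Of 13 markers of macrophages and dendritic cells none was called, with sums of 1786 to 3447 in S- and 1386 to 3589 in PreS. Markers of epithelium and stroma (5 measured, none called) summed to 185 to 219 and 126 to 225, and no erythroid marker passed the filter on low signals. Among 5 genes of NK and cytotoxic cells, with sums of 1522 to 2362 in S- and 2577 to 5838 in PreS, Ctsw rose and Gzma fell, as described later. The part of such cells in any result was not tested.

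RNA quality differed between arrays. The 3' to 5' signal ratio of the Gapdh control ran from 2.896 to 12.94 in S- and from 2.988 to 28.858 in PreS, and its highest PreS value belonged to PreS of TCR insHEL mice, replicate 1, whose lowest correlation with a replicate (0.878) was also the lowest of the 9 arrays, shared with replicate 3 of that group. Without that array the counts were 712 higher and 703 lower, against 708 and 729 with it. The 12 NODk arrays, S+ included, were hybridized on 7 days and no day held both S- and PreS arrays. With day as a fixed block, where the groups are linked only through S+ arrays, no probeset passed the threshold (583 did so at an unadjusted p under 0.05), and no within-day value of the change can be had. With day as a random block the counts were 683 higher and 708 lower.

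S- cells had 708 probesets higher and 729 lower than PreS cells at an adjusted p of 0.05 (limma, 3 arrays against 6, 5.51% and 5.68% of the 12838 tested). Taken as 1 probeset per gene, 450 of 7831 genes rose and 460 fell, 5.75% and 5.87%. The 3 S- arrays lay above all 6 PreS arrays in 11.3% of genes and below them all in 10.8%. Without 1 of the 3 S- arrays, whichever it was, the counts were between 296 and 374 higher and between 296 and 416 lower. When each array was only scaled and not standardized, the counts became 997 and 579, and the median change over all genes moved from 0.04 to 0.19.

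**Figure D1:**
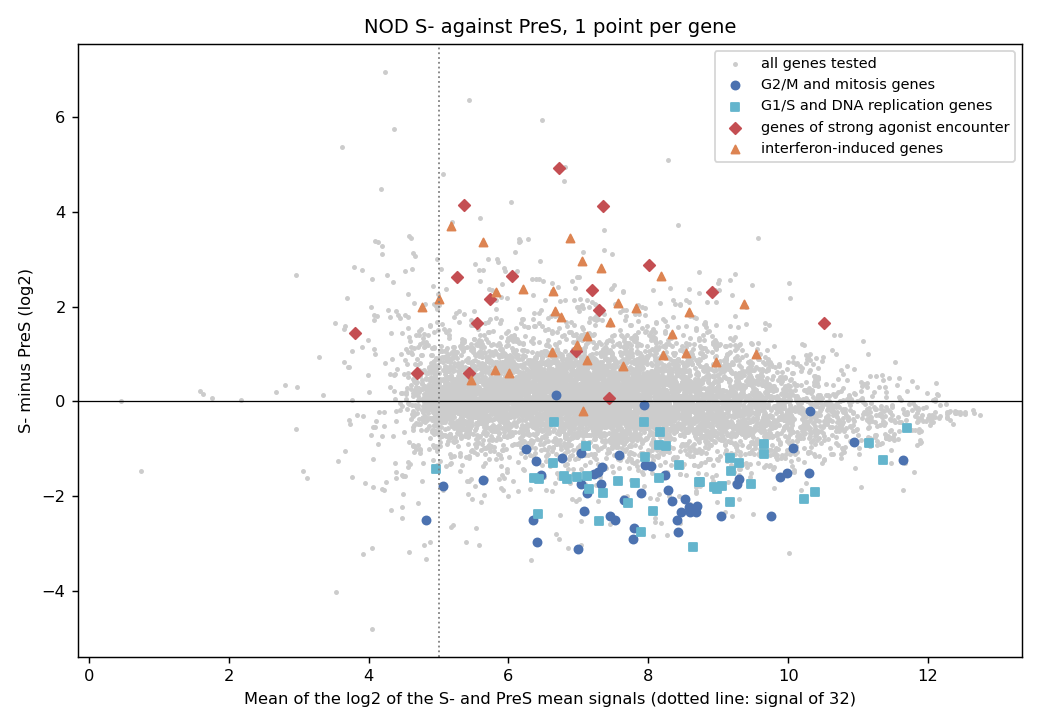
Change from PreS to S- in NODk thymocytes (vertical, log2) against the mean of the log2 signals of both groups (horizontal), 1 point for each of 7831 genes, with 4 gene lists marked. Genes of mitosis and of DNA replication lie mostly below 0, with medians of -1.75 and -1.62, and genes of strong agonist encounter and interferon-induced genes mostly above it, with medians of 2.16 and 1.83.

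Bcl3, a nuclear partner of NF-kB p50 and p52, showed the largest rise of the genes eligible for naming. Its signals were 176, 295 and 208 in S- and at most 2.2 in any PreS array, with a log2 change of 6.95 ± 0.29 (standard error, limma adjusted p = 4.3e-08). Irf4, a transcription factor induced in proportion to TCR signal strength, was near background in PreS (2.9 to 11.4) and reached 402, 367 and 415 in S-, a change of 6.36 ± 0.38. The groups lay far apart for both genes, and every S- array was high. Ccnd2, the D cyclin of lymphocytes answering mitogens, went from between 42.3 and 77 in PreS to 1754, 1762 and 2158 in S-, a change of 5.10 ± 0.26 (adjusted p = 1.3e-07), and its 5 other probesets rose by between 4.49 and 5.23.

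Bach2, a repressor that keeps lymphocytes in a resting state, had S- signals of 357, 559 and 1007 and PreS signals of 0.8 to 30.2. Gpr83, an orphan receptor known from regulatory T cells, stood at 115, 165 and 205 against 1.4 to 3.9. Ccr7, the chemokine receptor that guides cells to the medulla, had 570, 629 and 673 against 6.6 to 28.6. These 3 changes were 5.94, 5.75 and 4.95. Lack of overlap between the groups was a condition for naming the largest rises. Gadd45b, a stress and NF-kB response gene, rose by 4.92 ± 0.37 from a PreS range of 7.1 to 25.2 to 409, 832 and 571. Of its 2 other probesets, 1 rose by 7.10 and the other, near background in PreS, did not pass (0.83, adjusted p = 0.0516).

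The remaining large rises were Cd7, a T cell surface glycoprotein, at 4.8, Slfn1, a Schlafen gene of resting T cells, at 4.65, Lmna, the A-type lamin, at 4.21, Rgs16, which shortens signals of G protein coupled receptors, at 4.14, and Tnfrsf9, the costimulatory receptor 4-1BB, at 4.13. The signals of Slfn1 spread widely, from 314 to 792 in S- and from 3.8 to 70.9 in PreS. Lmna was uniform in S-, at 310, 259 and 269, against 5.2 to 28.2, but another probeset of it rose less, by 1.04. All of these genes but Ccnd2 and Tnfrsf9 had PreS means under 32, so the order among them is not exact. For Tnfrsf9 another probeset rose by 4.54, and 1 more, at 31.1 in S- and 23.3 in PreS, changed by 0.24 and was not called.

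**Figure D2:**
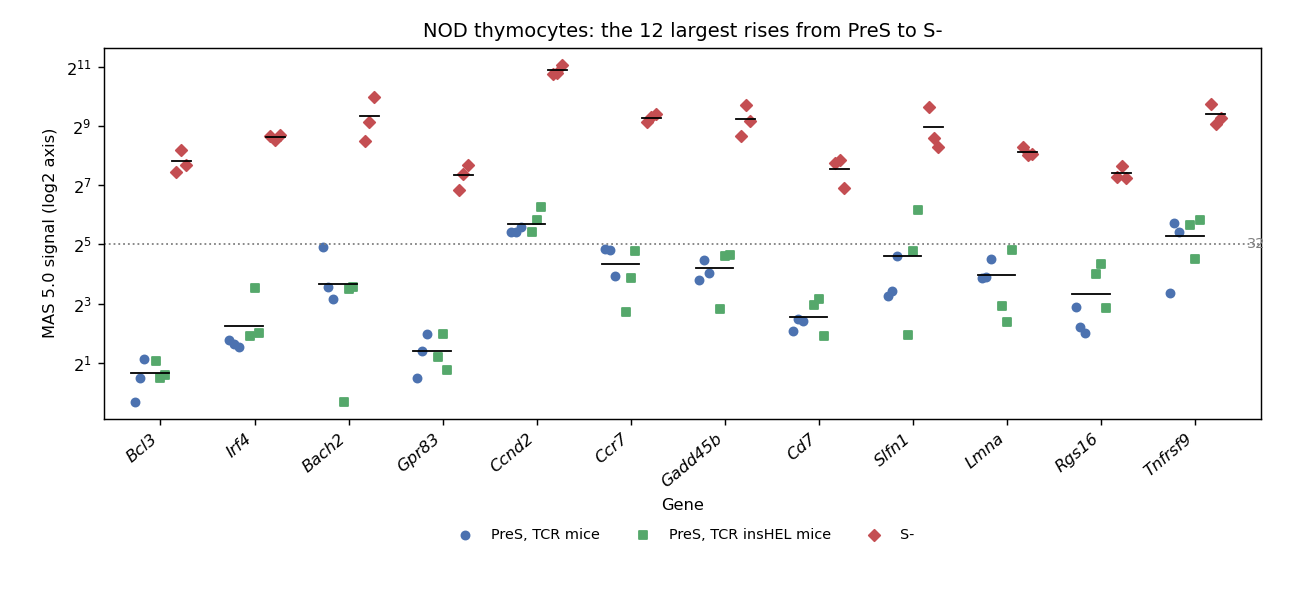
MAS 5.0 signal (vertical, log2 axis) of the 12 genes of largest rise in each of the 3 S- and 6 PreS arrays of NODk mice. Black lines mark the group means and the dotted line a signal of 32. By the rule for naming, the S- arrays lie above all PreS arrays in every gene. Of the 12, 10 start from a PreS mean under the dotted line.

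Of 14 NF-kB factors and targets measured, 6 rose and none fell, with a median change of 1.55, against 0.04 over all genes. Nfkb2, the precursor of p52, had signals of 146, 122 and 155 in S- and 3.9 to 16 in PreS (3.79 ± 0.38, limma adjusted p = 5.4e-05). Another probeset of Nfkb2 rose less, by 1.13. Its partner Relb had 206, 250 and 276 against 12.4 to 27.1 (3.38 ± 0.37). Nfkbiz, a nuclear inhibitor-like coactivator, rose by 2.13, the adhesion molecule Icam1 by 2.30 and Birc3, a ubiquitin ligase of TNF receptor complexes, by 1.64. Nfkbia, which holds NF-kB in the cytoplasm, was abundant in both groups, at 4323 ± 493 (SD, n = 3) and 4300.1 ± 1162 (SD, n = 6), with a difference of 0.03. Its 3 other probesets had 0.03, 0.8 and 0.69 and were not called (limma adjusted p = 0.959, 0.0771 and 0.0793). Rel (1.46, adjusted p = 0.0943) and Traf1 (2.47, adjusted p = 0.13) lay above all PreS arrays without passing the test, and for Traf1 the PreS value of TCR insHEL replicate 1 was 0.8 where the others ran from 28.0 to 45.5.

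Promoter windows, from 250 bases before a start to 50 after (RefSeq, GRCm38.p6), were searched for motifs on both strands, and the windows printed for Bcl3 and Nfkb2 were chosen because they hold the NF-kB motif. RefSeq windows were at hand for 4 of the 6 genes that rose. The NF-kB motif was found in 4 of their 6 windows (66.7%), which belong to 2 genes, and in 4.51% of all 32841 windows, and the motif GCGNGGGCG of Egr factors in 1 of the 6 (16.7%) and in 5.55% of all. Capitals mark the matches. In Bcl3 (chr7:19822706-19823005, minus strand) the match begins 2 bases after the start. In the Nfkb2 window at chr19:46304487-46304786 (plus strand) matches begin 39, 38 and 11 bases before it, with the first 2 overlapping.
Bcl3: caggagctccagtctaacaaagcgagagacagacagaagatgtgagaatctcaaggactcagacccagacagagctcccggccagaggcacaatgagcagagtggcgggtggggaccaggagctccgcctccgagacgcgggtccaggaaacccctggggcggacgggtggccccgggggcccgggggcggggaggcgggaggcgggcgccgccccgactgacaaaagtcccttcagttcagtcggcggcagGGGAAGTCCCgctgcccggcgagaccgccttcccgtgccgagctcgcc
Nfkb2: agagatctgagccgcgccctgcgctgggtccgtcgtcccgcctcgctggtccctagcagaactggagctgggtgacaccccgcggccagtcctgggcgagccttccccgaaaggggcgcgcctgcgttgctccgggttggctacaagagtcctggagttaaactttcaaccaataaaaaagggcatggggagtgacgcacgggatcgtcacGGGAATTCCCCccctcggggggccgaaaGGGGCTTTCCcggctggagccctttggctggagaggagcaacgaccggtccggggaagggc
A match is only a run of letters, and binding was not measured.

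In the TNF receptor family and its adaptors 9 of 16 measured genes rose and none fell (median 2.24). Tnfrsf9 stood at 865, 537 and 623 in S- and at 10.3 to 56.3 in PreS. Tnfrsf4, the costimulator OX40, had 705, 662 and 761 against 35.8 to 121 (2.88 ± 0.31), and Tnfrsf18, known as GITR, 1138, 979 and 1194 against 175 to 266 (2.30 ± 0.23). No S- value came near the PreS range. Tnfrsf25, the death domain receptor DR3, rose by 3.16 and Tnfrsf1b, the second TNF receptor, by 2.34, though another probeset of Tnfrsf1b was not called (-0.71). Fas, the death receptor best known from lymphocytes, gave 87.4, 40.1 and 103 in S-, overlapping the PreS range of 51.5 to 140 (adjusted p = 0.435).

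Most genes listed for the encounter of thymocytes with a strong agonist rose. Of 17 measured, 13 rose and none fell, with a median of 2.16. Some members, such as Smox, Id1 and Pdcd1, are genes that the paper picked from these same arrays, so the count is not an independent test. Kit, the receptor of stem cell factor, was tight in S- at 182, 173 and 163 against 13.6 to 39.8 (2.65 ± 0.29). Gadd45g rose by 2.63, the costimulator Icos by 1.92 and Ctla4, which competes with CD28 for its ligands, by 1.66, from 16.6 to 32.3 in PreS to 94.7, 68.6 and 106. Smox, spermine oxidase, had 183, 153 and 240 against 72.3 to 89.8 (1.06 ± 0.20), a call that just missed the threshold without S- replicate 3 (adjusted p = 0.0501). The members not called were Pdcd1, the inhibitory receptor PD-1, at 0.08, Il2ra, the alpha chain of the IL-2 receptor, at 0.59, the chemokine Xcl1 at 1.45 and Id1, an inhibitor of E proteins, at 0.60. Pdcd1 stood at 184 ± 16.9 (SD, n = 3) and 162 ± 40.3 (SD, n = 6), with full overlap. Id1 rested on low signals, 34.2 against 19.4.

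Bcl2l11, which encodes the death protein Bim, had signals of 1959, 2860 and 2762 in S- and between 404 and 1532 in PreS, so that the groups did not overlap. The change was 1.66 ± 0.42 (limma adjusted p = 0.0214). The call was lost when any of the 3 S- arrays was left out, with adjusted p values between 0.00998 and 0.0965 as each of the 9 arrays was left out in turn. Of 4 other probesets of the gene, 3 rose by between 1.76 and 2.41 and 1 near background did not pass.

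Of 18 transcription factors of the TCR response, 9 rose and none fell (median 1.16). Nr4a1, or Nur77, an orphan nuclear receptor that follows TCR signal strength, was at 1094, 1378 and 1297 in S- and at 37.5 to 142 in PreS (3.72 ± 0.32, limma adjusted p = 2.3e-05). Egr2 went from 71.1 to 239 in PreS to 588, 840 and 744 (2.39 ± 0.38), and Nab2, the corepressor of Egr proteins, from between 105 and 197 up to 390, 627 and 524 (1.67 ± 0.23). Egr1 was already high in PreS cells, at 458 to 1769, and reached 2032, 2340 and 2403 (1.08, adjusted p = 0.0387). Egr3 was low and overlapping, 33.9 against 46.2. Fos gave 223, 230 and 272 in S- and 38.2 to 64.8 in 5 of the PreS arrays, while PreS of TCR insHEL replicate 2 gave 237, inside the S- range. With each array left out in turn the adjusted p ran from 0.0172 to 0.137 for Egr1 and from 0.00056 to 0.127 for Fos, past 0.05 without any of the 3 S- arrays and without PreS replicates 2 and 3 of TCR mice and 3 of TCR insHEL mice, for Egr1 also without replicate 2 of the latter.

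Feedback genes moved in part. Of 9 dual specificity phosphatases and Sprouty genes 2 rose, Dusp2 by 1.65 and Dusp1 by 1.30, and of 7 regulators of G protein signalling 3 rose. Of 17 genes that restrain TCR signals 1 rose, Ndfip1, an adaptor of Nedd4-type ligases (1.00), and 1 fell, Sla, an adaptor that lowers receptor levels (-0.96), whose adjusted p passed 0.05 when any 1 of the 9 arrays was left out (0.051 to 0.161). Over all genes 5.75% rose and 5.87% fell. Of 14 genes of the TCR complex and its proximal signalling only the kinase Fyn rose (1.63), and Cd3d was at 2309 ± 142 and 2535 ± 405 (SD, n = 3 and 6). Among calcineurin and NFAT genes 2 of 11 rose, of which Orai1, the pore of the calcium release channel, changed by 2.04. Ctsw, the protease cathepsin W, was among the most uniform rises, at 510, 515 and 535 in S- and 37.9 to 71.2 in PreS (3.19 ± 0.25). Gzma, granzyme A, ran the other way, at 1614, 949 and 851 against 2447 to 5713 (-1.80 ± 0.34).

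Of 8 genes of regulatory T cells that passed the filter on low signals, 6 rose and none fell (median 2.10, of 13 named on the array). A gene low in PreS, such as Gpr83 at 1.4 to 3.9, passed only through a condition where it was higher. The share that rose is therefore in part set by the filter. Besides Gpr83, Tnfrsf4, Tnfrsf18 and Ctla4 these were Izumo1r, the folate receptor 4, at 470, 368 and 446 against 51.8 to 89.4 (2.40 ± 0.21), and Il2rb, the beta chain of the IL-2 receptor, at 1.91. The call of Il2rb was lost without S- replicate 1 (leave-one-out adjusted p from 0.00752 to 0.0554). Another probeset of Il2rb, near background in both groups, was not called (-0.62, limma adjusted p = 0.649). Of the others, Il2ra and Capg were measured and not called, and 5 of the 13, among them Foxp3, the defining factor of these cells, stayed under the filter.

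Genes of maturation beyond the double positive stage rose as well, 10 of 20 with none falling (median 1.2). Il7r, which receives the survival signal of IL-7, was at 420, 598 and 599 in S- and 29.6 to 100.1 in PreS (3.11 ± 0.35, limma adjusted p = 0.00011). S1pr1, the receptor for exit from the thymus, was at 186, 396 and 145 against 26.4 to 39.6 (2.54 ± 0.29), and Klf2, the factor that drives its transcription, at 652, 289 and 397 against 48 to 122 (2.46 ± 0.52). The call of Klf2 did not hold without S- replicate 1 (leave-one-out adjusted p from 0.00836 to 0.0564). Foxo1, upstream of Klf2 and Il7r, rose by 2.35 and Zbtb7b, or ThPOK, the factor that commits cells to the CD4 lineage, by 3.37, from 6.1 to 57.1 in PreS to 223, 225 and 179. Cd5 (0.53) and Cd52 (0.82) were high in both groups and not called. Gimap4, a GTPase of the lymphocyte survival family, stood at 2049, 2807 and 2663 against 322 to 589 (2.50 ± 0.28), and Id2, an inhibitor of E proteins, rose by 2.38 where its relative Id3, already at 621 in PreS, had -0.47 (adjusted p = 0.161).

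Interferon-induced genes were higher in S-, 17 of 32 with none lower (median 1.83). In single arrays the median over these genes, relative to the PreS mean, ran from 1.35 to 2.21 in S- and from -0.45 to 0.94 in PreS, so the PreS arrays varied among themselves as well. Samhd1, a dNTP hydrolase that restricts viruses, was at 385, 380 and 434 against 15.2 to 48.5 (3.44 ± 0.31, limma adjusted p = 3.4e-05). Oas2 rose by 3.36, Ifit1 by 2.97 and the RNA sensor Ifih1 by 2.81. Irf9, a subunit of the factor that carries the interferon signal, had 425, 362 and 390 against 54.0 to 176 (2.07 ± 0.32), and Irf1 838, 777 and 755 against 192 to 402 (1.37 ± 0.23). Irf7 overlapped, since PreS of TCR insHEL replicate 3 gave 235 where the other PreS arrays gave 57.0 to 78.7, and its call was lost without S- replicate 1 or 2, PreS replicate 3 of TCR mice or 2 of TCR insHEL mice (leave-one-out adjusted p from 0.00283 to 0.15). Of 13 genes of MHC class I processing 4 rose, among them Tapbp, the tapasin that loads peptides (2.69), and H2-K1 (2.09). Another probeset of Tapbp was not called (1.78, adjusted p = 0.362), and its PreS value in TCR insHEL replicate 1 was 37.1 where the others ran from 248 to 333. Tap1, a subunit of the peptide transporter, rose by 1.45, a call lost without any 1 of the S- arrays, PreS replicate 3 of TCR mice or 2 of TCR insHEL mice (leave-one-out adjusted p from 0.0116 to 0.123). B2m was at 2781 ± 23.5 (SD, n = 3) and 2260.0 ± 586 (SD, n = 6), a difference of 0.30. Probesets of H2-K1 and H2-D1 may share signal with related class I genes, and 2 of the other 3 of H2-K1 and 4 of the other 6 of H2-D1 were not called. The call of H2-D1 was lost without S- replicate 1 (adjusted p = 0.0595).

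Among the 12 largest falls under the rule for naming, Cd8a included, stood Emp1, a membrane protein, at -3.34 ± 0.29 (38.4, 27.9 and 15.8 in S- against 167 to 301), Bub1, a checkpoint kinase of mitosis, at -3.12 ± 0.29, Lrr1, a leucine-rich repeat protein, at -3.09, and Rfc4, a subunit of the clamp loader of replication, at -3.08 ± 0.51. Bub1 went from 236 to 523 in PreS to 61.4, 32.9 and 40.8. Rfc4 had 86.4, 187 and 133 in S-, and its PreS values of 505 to 1007 in 5 arrays were joined by 2896 in PreS of TCR insHEL replicate 1. Pkig, an inhibitor of protein kinase A, Mxd3, a MAX partner of cycling cells, Ncapg, a condensin subunit, and Cip2a, which inhibits the phosphatase PP2A, had changes between -3.04 and -2.96. Idh1, the cytosolic isocitrate dehydrogenase, fell by 2.91, Cenpf, a kinetochore protein, by 2.90, and Syce2, of the synaptonemal complex, had -2.83. Another probeset of Cenpf, near background in S-, was not called (-0.55).

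**Figure D3:**
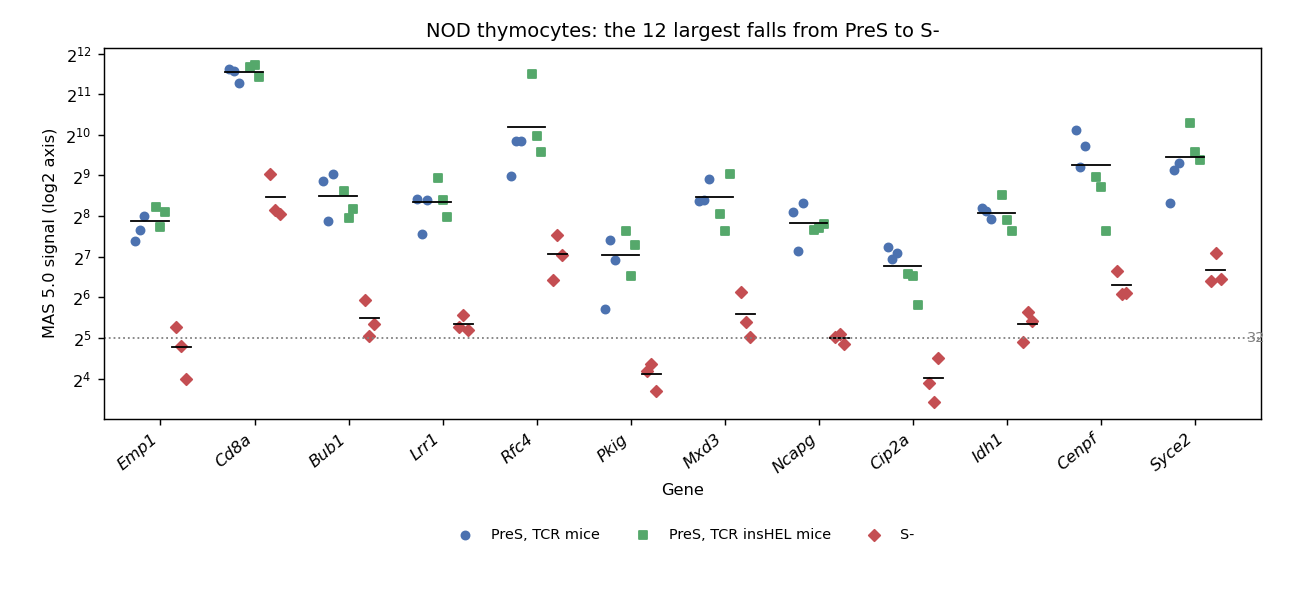
MAS 5.0 signal (vertical, log2 axis) of the 12 genes of largest fall in each of the 3 S- and 6 PreS arrays of NODk mice, drawn as in the plot of the rises. By the rule for naming, the S- arrays lie below all PreS arrays in each gene. The lone green square near 2896 is Rfc4 in PreS of TCR insHEL replicate 1.

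Of 51 genes of G2 and mitosis 42 fell and none rose (median -1.75), and of 44 genes of the G1 to S transition and DNA replication 35 fell and none rose (median -1.62). The values of the median per array lay between -1.93 and -1.59 in S- and between -0.26 and 0.38 in PreS for mitosis, and between -1.75 and -1.41 against -0.25 and 0.34 for replication. No array of one group entered the range of the other. Cdk1, the kinase that starts mitosis, had 260.3, 130 and 152 in S- and 510 to 1271 in PreS (-2.22 ± 0.39). Top2a, the topoisomerase that resolves sister chromatids, had 762, 579 and 477 against 1254 to 2296 (-1.52 ± 0.27). Cdc6, which loads the replicative helicase, had 72.8, 80.1 and 51.8 against 275 to 553 (-2.52 ± 0.25), and Rrm2, the regulated subunit of ribonucleotide reductase, 607, 669 and 517 against 2093 to 3283 (-2.06 ± 0.25). Mki67 and Pcna fell by 1.64 and 1.23, with calls that were lost without S- replicate 2 or 3 (leave-one-out adjusted p from 0.0102 to 0.0855 and from 0.00717 to 0.0691). Plk1 (-1.34, adjusted p = 0.0797), Aurkb (-1.54, 0.0973) and Mcm5 (-1.35, 0.103) were not called, and PreS of TCR insHEL replicate 1 was low for Mcm5 at 160. Another probeset of Aurkb was called, with a change of -2.14 (limma adjusted p = 0.00591).

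Promoter windows were searched for 4 motifs known from cell cycle genes, on both strands. RefSeq windows were at hand for 65 of the 77 genes that fell. The CHR motif TTTGAA stood in 30 of their 72 windows (41.7%) and in 17.9% of all 32841 windows, and CCAAT in 46 (63.9%) and in 37.4%. The E2F motifs were rarer, GGCGGGAA in 5 windows (6.94%, 2.19% of all) and TTTGGCGC in 4 (5.56%, 0.515% of all), and no gene named here had the latter. The 3 printed are Ncapg (chr5:45669675-45669974, plus strand), with TTTGAA 30 bases and CCAAT 176 bases before the start, Bub1 (chr2:127831810-127832109, minus strand), with CCAAT beginning 68 and 42 bases before it, and Rfc4 (chr16:23127681-23127980, minus strand), with GGCGGGAA beginning 10 bases after it. They are shown as 3 genes of large fall with different motifs, and capitals mark the matches.
Ncapg: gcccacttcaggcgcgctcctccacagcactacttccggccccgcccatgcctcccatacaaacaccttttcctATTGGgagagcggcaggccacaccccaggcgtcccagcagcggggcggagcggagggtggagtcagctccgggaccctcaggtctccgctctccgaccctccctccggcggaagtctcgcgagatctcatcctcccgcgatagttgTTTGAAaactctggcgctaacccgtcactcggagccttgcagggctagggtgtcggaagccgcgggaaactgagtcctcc
Bub1: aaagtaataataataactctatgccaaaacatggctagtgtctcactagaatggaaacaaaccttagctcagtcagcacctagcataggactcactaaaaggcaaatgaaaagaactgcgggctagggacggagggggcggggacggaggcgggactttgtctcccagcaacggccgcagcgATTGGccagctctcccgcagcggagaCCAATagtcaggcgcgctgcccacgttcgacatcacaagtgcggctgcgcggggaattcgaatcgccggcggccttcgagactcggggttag
Rfc4: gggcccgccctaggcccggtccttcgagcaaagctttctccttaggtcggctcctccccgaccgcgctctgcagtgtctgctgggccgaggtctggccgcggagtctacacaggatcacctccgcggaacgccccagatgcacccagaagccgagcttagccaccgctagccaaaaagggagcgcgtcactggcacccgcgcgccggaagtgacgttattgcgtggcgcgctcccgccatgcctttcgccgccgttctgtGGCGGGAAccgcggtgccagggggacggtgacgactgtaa

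Among G1 regulators the D cyclins parted. Ccnd2 rose, as given before, while Ccnd3 was at 682, 435 and 559 in S- and at 286 to 1798 in PreS, a difference of -1.13 that did not pass (limma adjusted p = 0.224). Its low PreS value was again TCR insHEL replicate 1, and the other PreS arrays, from 1240 to 1798, all lay above S-. Cdkn2c, the inhibitor p18, fell by 1.43, with a leave-one-out adjusted p from 0.00499 to 0.12 that passed 0.05 without S- replicate 2 or 3. The other 11 of 13 measured were not called.

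Genes of the stage before selection fell, 7 of 16 with none rising (median -0.96). Rag1, which cuts receptor genes, had 317, 274 and 163 in S- and 780 to 1632 in PreS (-2.34 ± 0.30, limma adjusted p = 0.00028). Its partner Rag2 went from 46.2 to 145 down to 15.0, 4.6 and 9.5, under background in S- (-3.33 ± 0.38). Dntt, which adds bases at the joins, had 1535, 2034 and 1389 against 4340 to 10414 (-1.88 ± 0.34), and Arpp21, a double positive marker, 176, 128 and 98.2 against 370.2 to 716 (-2.04 ± 0.27). Endou, an endoribonuclease of these cells, fell by 2.82. Ptcra, the invariant chain of the receptor before alpha rearrangement, fell by 1.15, a call that was lost without S- replicate 2 or 3 (leave-one-out adjusted p from 0.0149 to 0.148). Cd24a lay below all PreS arrays at 1068, 970.2 and 1145 against 1550 to 4099 without passing (-1.12, adjusted p = 0.0619), and 1 of its 2 other probesets fell by 2.01. Slamf6 fell by 1.53 where its relative Slamf1 rose by 1.39.

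Few genes of the death machinery were called, where 5.75% of all genes rose and 5.87% fell. Of 12 BCL2 family genes measured, Bcl2l11 rose and Bad and Bid, both of which promote death, fell by 1.37 and 1.18. Another probeset of Bad was not called (-0.38, limma adjusted p = 0.536). The calls of Bad and Bid were lost without S- replicates 1 or 3, for Bid also without replicate 2 and for Bad without PreS replicate 2 of either group and 3 of TCR insHEL mice (leave-one-out adjusted p from 0.00992 to 0.164 and from 0.0153 to 0.109). The protective genes Bcl2 (0.53, adjusted p = 0.0912), Mcl1 (0.46, 0.38) and Bcl2l1 (0.07, 0.901) were not called. The median of the family was -0.05, and its sign turned in 4 of 14 alternatives. Of 17 caspases and apoptosome genes 2 rose, Birc3 and Casp4, an inflammatory caspase (3.39, from 0.5 to 14.0 in PreS to 72.4, 39.4 and 38.0). The call of Casp4 was lost without S- replicate 1 (leave-one-out adjusted p from 0.00398 to 0.055). Of 12 genes of the p53 pathway and the Gadd45 family 3 rose, Gadd45b, Gadd45g and Zmat3 (1.52), the last lost without S- replicate 1 or 3 (0.00132 to 0.0635), while Gadd45a (-0.77) and Cdkn1a (-0.63) were not called.

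Few genes of the respiratory chain, proteasome, chaperones and ribosome were called, with medians below 0. Of 45 respiratory chain genes 2 fell and none rose (median -0.66), of 31 proteasome subunits 1 fell (median -0.55), of 27 heat shock proteins and chaperones 1 fell (median -0.42), and of 41 ribosomal protein genes 1 rose (median -0.31), against 5.75% and 5.87% of all genes. All 31 proteasome subunits had changes below 0, the highest -0.06, and 8 of them lay below all PreS arrays, against 10.8% of all genes. Of 20 genes of cholesterol and fatty acid synthesis 4 fell and none rose, Cyp51 by 1.27, Sqle by 1.21, Idi1 by 1.21 and Fdft1 by 1.08, and of these only the call of Cyp51 held as each array was left out. In glycolysis Tpi1, triose phosphate isomerase, fell by 1.55 and Slc2a3, a glucose transporter, rose by 0.86, a call lost without any 1 of the S- arrays and 3 of the PreS arrays (leave-one-out adjusted p from 0.0299 to 0.147), and the other 10 of 12 were not called. Among Notch genes Dtx1, a ubiquitin ligase and Notch target, rose by 1.59 and Notch1 by 1.39, the latter lost without any 1 of the S- arrays (leave-one-out adjusted p from 0.0089 to 0.105). Another probeset of Notch1 was not called (0.63, limma adjusted p = 0.101). Cish, the SOCS protein of the IL-2 and IL-7 response, was at 398, 379 and 389 against 79.2 to 116 (1.88 ± 0.24), while Socs1 (0.66) and Socs3 (0.62) were not called.

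**Figure D4:**
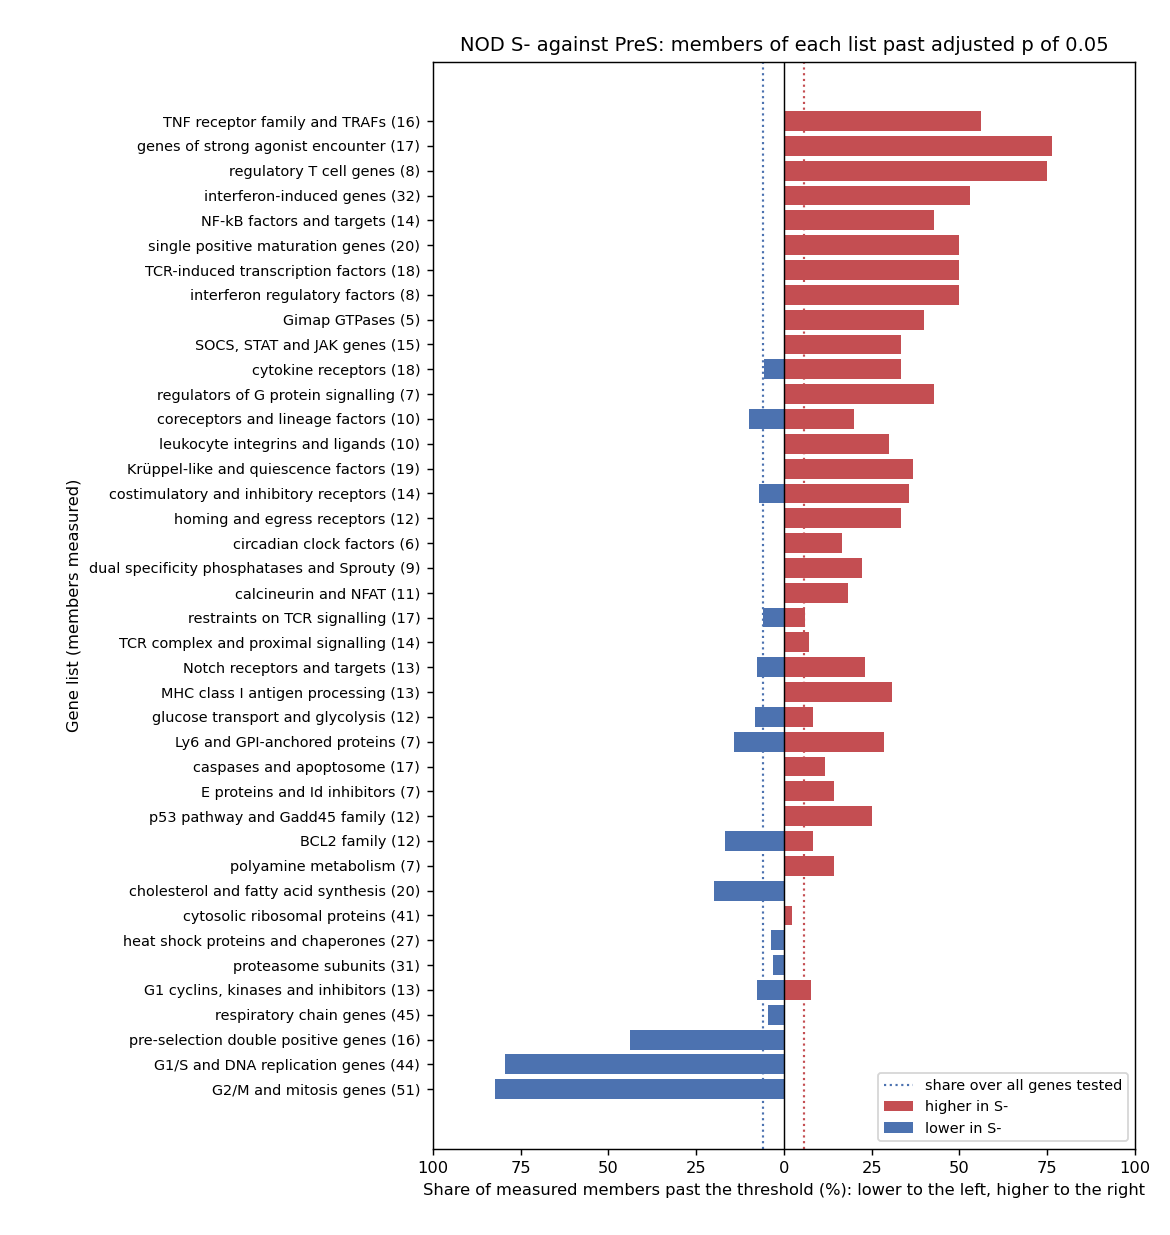
Share of the measured members of each gene list that passed an adjusted p of 0.05 in S- against PreS (horizontal, percent), higher to the right and lower to the left, with the number measured in brackets and the lists ordered by median change. Dotted lines mark the shares over all genes, 5.75% higher and 5.87% lower. Genes of strong agonist encounter reach furthest to the right, with 13 of 17, and genes of mitosis furthest to the left, with 42 of 51.

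Set against S+ cells of the same strain, the positively selected CD4+ cells of TCR mice that had no HEL, no probeset separated S- at the threshold (0 of 12838, 0%, limma, 3 arrays against 3), and 565 did so at an unadjusted p under 0.05. S+ replicates 1 and 2 had the highest 3' to 5' ratios of the 12 NODk arrays, 57.169 and 40.942, and replicate 3 had 3.633. Without S+ replicate 3, which leaves the 2 S+ arrays of high ratio, the count was 171. The 3 genes of smallest p were Ift172, a transport protein of cilia, at 2.61 on low signals, Kit at 1.43 and Ctla4 at 1.35. Kit had 69.3, 59.3 and 69.8 in S+, below all S- arrays and above all PreS arrays. Both S- and S+ are set against the same PreS arrays, so their changes are given side by side only. The median change was 2.16 in S- and 1.39 in S+ for agonist encounter, 2.24 and 1.15 for the TNF receptor family, 1.2 and 0.97 for maturation, -1.75 and -1.65 for mitosis and 1.83 and 0.84 for interferon-induced genes. Lmna was at 279 ± 27.1 in S- and 96.6 ± 64.6 in S+ (SD, n = 3 each), and Bcl2l11 at 2527 ± 495 and 1996 ± 754, differences of 1.78 and 0.27 that did not pass (adjusted p = 0.803 and 0.907).

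**Figure D5:**
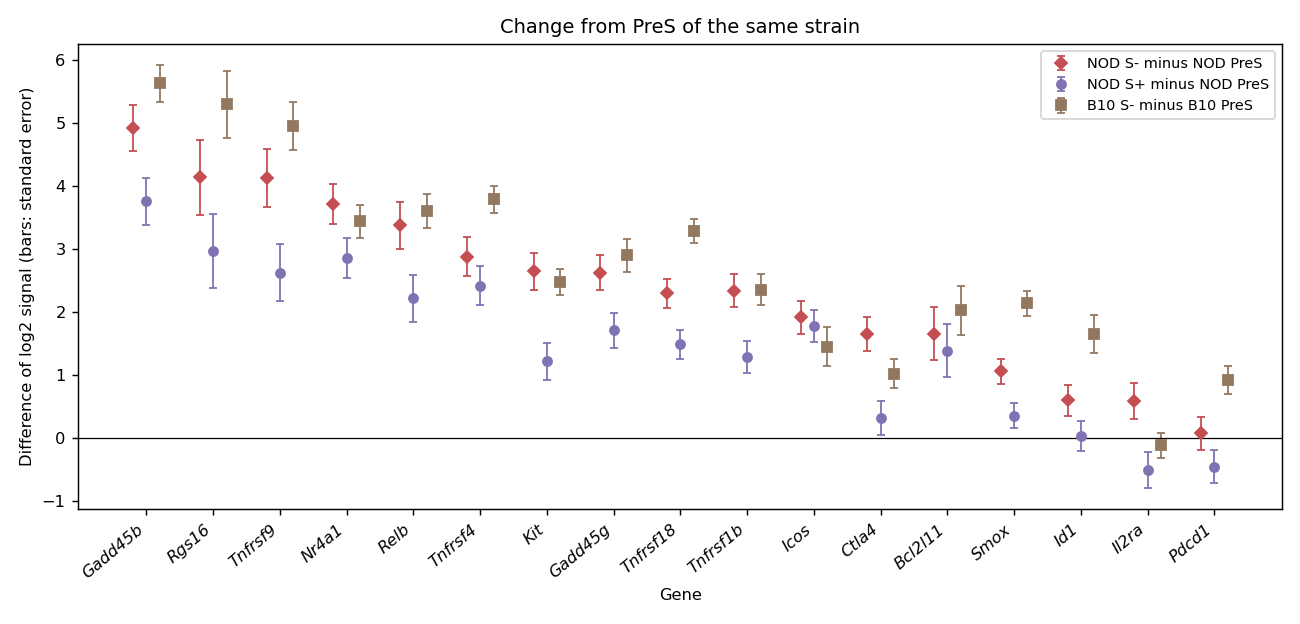
Difference of log2 signal from PreS of the same strain (vertical, bars give the standard error) for 15 genes of strong agonist encounter, Nr4a1 and Relb in NODk S-, NODk S+ and B10k S- cells. NODk S- and S+ share their PreS arrays. Smox lay at 1.06 in NODk and 2.14 in B10k S- cells. None of these genes, each taken as its brightest probeset, differed between strains at the threshold.

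The same change in the B10k strain, 3 S- and 6 PreS arrays of B10k mice with the same transgenes, was set against that of NODk in 1 fit of 24 arrays. The change differed between the strains in 13 probesets (0.101% of 12838). Of the 7 genes named from them, Adgrg3, an adhesion G protein coupled receptor, rose by 2.39 in NODk, at 297, 312 and 285 against 32.7 to 63.6, and by 0.56 in B10k (limma adjusted p = 0.00646 for the difference of 1.83). Dtx1 rose in NODk as given and had -0.92 in B10k, a difference of 2.51 (adjusted p = 0.0242). Lad1, an anchoring filament protein, and Myo6, an unconventional myosin, were low in NODk S- cells, at 72.3 and 14.4, and stood at 998 and 415 in S- cells of B10k. The median change of agonist encounter genes was 2.16 in NODk and 2.36 in B10k, and of interferon-induced genes 1.83 and 1.2, and 0 of the members of either list differed between strains at the threshold. Among the key genes of the agonist list, the change was smaller in NODk than in B10k for all but Il2ra (difference 0.7). The difference was -1.78 for Xcl1, -1.17 for Rgs16, -1.05 for Id1, -1.0 for Tnfrsf18, -0.91 for Tnfrsf4, -0.82 for Tnfrsf9 and -0.71 for Gadd45b. Smox had 2.14 in B10k and 1.06 in NODk (adjusted p = 0.115), Pdcd1 0.92 and 0.08 (0.319), and Bcl2l11 2.03 and 1.66 (0.815). The values of Bcl2l11 are those of its brightest probeset, and strain differences of its other probesets are not given here. The paper called induction of this gene undetectable in NODk, from patterns over PreS, S+ and S- cells rather than from S- against PreS alone. It reported poor induction in NODk for some probesets of this gene and little change for others. Of the probesets it listed as candidates, 1 rose by 1.76 in NODk S- against PreS (limma adjusted p = 0.00285). The other, near background, had 0.58 (adjusted p = 0.119).

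The 2 PreS groups were merged. Between PreS cells of TCR and TCR insHEL mice 4 probesets differed (0.0312% of 12838), and 1333 did at an unadjusted p under 0.05. With PreS of TCR insHEL mice alone, the mice that gave the S- cells, 967 probesets were higher and 737 lower in S-, and with PreS of TCR mice alone 420 and 384.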

How the data were processed

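Thymocyte RNA was hybridized to 24 Affymetrix 430A arrays. The authors made the deposited signal values with MAS 5.0, scaled to a trimmed mean of 150, 1 value per probeset and array. Of 22690 probesets, 64 controls were dropped, and 33 zeros were replaced by 0.1. Each array's log2 signals were standardized (mean 0, variance 1) and then returned to a shared log2 scale. A probeset entered the tests (12838 did) if some condition, out of 8, had every array at 32 or more. This filter replaces the study's present calls, which were not used here. A gene low in PreS or in S- entered only through a condition where it was higher, which can raise the share of a list that is called. limma 3.58.1 (R 4.3.3) was fitted to the 12 NODk arrays (PreS, S+, S-), or to all 24 for the strain comparison, two-sided, with Benjamini-Hochberg adjustment over all kept probesets and a threshold of 0.05. Tables were handled with Python 3.11.15 and pandas 2.3.3, and the fit was tested on simulated data. There it recovered 25 of 100 added changes of log2 size 1 and 69 of 100 of size 2. A missing call therefore does not show a lack of change. Only S- against PreS was simulated, with no other changes among the 12838 probesets. Fewer probesets differed there than were called in the data, so these rates need not hold for the data.

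A gene stands for its kept probeset of highest mean signal (7831 genes), and 20380 probesets had 1 gene symbol, 691 several and 1555 none, the latter not named here. Named were the 12 largest rises and falls among called genes without overlap and with a mean of at least 100 in the higher group, the key genes of each list with up to 4 more of smallest p, and up to 8 genes on each side for the other contrasts, or the 3 of smallest p. The comparison, members and lists were chosen with earlier results of these data known. Alternatives were other scalings, filters, tests, sample sets and blocks. The 3' to 5' ratio as a covariate, and leaving out the 3 NODk arrays of highest ratio, were chosen after seeing the data. The number of arrays limits the precision.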

Additional observations from a re-analysis of the deposited data

Results flagged for a closer look

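In 15 of the 138 named genes checked, 1 of the 6 PreS arrays lay far from the others, by a gap to its neighbour of more than 0.625 of the whole range of log2 signals. Chance flags about 1 in 20 such groups. PreS of TCR insHEL replicate 1 was the far array, and low, in Bach2 (gap over range 0.66), Tnfrsf4 (0.749), Traf1 (0.88), Ccnd3 (0.798), Tapbp (0.865), H2-D1 (0.665) and Tap1 (0.664), and it was high in Pcna (0.638). Replicate 2 of the same group was high in Irf4 (0.765), Fos (0.71) and Cdkn1a (0.625), and replicate 3 in Irf7 (0.772). In PreS of TCR mice, replicate 3 was low in Rel (0.741), replicate 1 high in Nfkbiz (0.688) and replicate 2 low in Cdkn2c (0.644).

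The change from PreS to S- differed between the strains, by a direct limma test of the difference (NODk minus B10k), in 7 genes. It was higher in NODk for Dtx1 (2.51, adjusted p = 0.0242), Adgrg3 (1.83, adjusted p = 0.00646), Rnf157, a ubiquitin ligase (2.31, adjusted p = 0.0284) and Atp6v0e2, a subunit of the vacuolar proton pump (2.44, adjusted p = 0.0328). For Rnf157 the change was -0.06 in NODk and -2.36 in B10k. It was lower in NODk for Lad1 (-3.83, adjusted p = 4.3e-07), Tnni1, a troponin of slow muscle (-3.87, adjusted p = 1.6e-05) and Myo6 (-2.95, adjusted p = 0.0134). Tnni1 was at 3.5 in S- and 2.6 in PreS of NODk, both near background, so its difference is not exact in size.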

How the results depend on the processing

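The counts for S- against PreS, 708 higher and 729 lower, became 2037 and 1946 with array weights, 1147 and 1147 with all 24 arrays in 1 fit, 1100 and 1263 with the 3' to 5' ratio as a covariate (chosen after seeing the data), 420 and 384 with PreS of TCR mice alone, 422 and 424 without the filter, 1763 and 1678 at an unadjusted p under 0.05, and 0 and 0 with day as a fixed block. As each array was left out they ran from 296 to 1011 and from 296 to 900. Of 148 named genes called, 103 kept their call without each array, none turned its direction under any alternative, and with day as a fixed block all 148 lost it. S- against S+ gave 0, but 1794 with array weights, 1 with a floor of 16 and 565 unadjusted, and 0 to 171 as arrays were left out, the 171 without S+ replicate 3. The strain comparison gave 13, and 903 with array weights, 50 with the ratio as a covariate, 58 with a floor of 16, 31 with day as a random block, 2 with day fixed, 6 without the filter, 21 with quantile normalization, 23 at a signal of at least 64, 30 without the 3 arrays of highest ratio (chosen after seeing the data), 1581 unadjusted, and 4 to 24 as arrays were left out. PreS of TCR against TCR insHEL mice gave 4, and 259 with array weights, 868 with day fixed, 10 without the 3 arrays of highest ratio, 2 with an intensity trend or at a signal of at least 64, 0 with a floor of 16, the methods' t-test, no filter or the replicate block, 1333 unadjusted, and 0 to 13 as arrays were left out. Replicate numbers were not used to pair the arrays. Correlations of deviations between arrays of the same number ran from -0.243 to 0.338. Arrays of different numbers were not compared, so these values cannot decide whether the arrays were paired. With the replicate block S- against PreS gave 709 and 740, S- against S+ 0 and the strain comparison 16, and 4 of the 148 genes lost their call. The causes of these shifts were not tested.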
